A study of Mus musculus with 4 samples.

Results

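The genes described here encode the proteins that make, extend, bind and shorten the poly(A) tail, together with the CPEB proteins that direct this machinery to chosen mRNAs. The 46 genes were listed by symbol, by their part in these steps, and every spot with one of these symbols was taken. All 46 were on the array, among 24164 gene symbols, and all 46 were among the 19698 genes with a probe well above background on at least 2 of the 4 arrays. They carried 64 of the 55615 probes used. The values describe the mRNAs of these genes as cargo in a pull-down. They do not measure the proteins.

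The study used RNA immunoprecipitation (RIP), in which an antibody recovers a protein along with the RNA bound to it, to find the transcripts held by CPEB2 in mouse brain. Lysate of cortex and hippocampus from male C57BL/6 mice of 8 weeks, supplied by LASCO in Taiwan, was kept for 3 h with beads carrying CPEB2 IgG or control IgG. Each antibody was used in 2 independent experiments, and the CPEB2 IgG array of each experiment is set here against its control IgG array. From every pull-down 0.2 µg of RNA was amplified and labelled with Cy3 for a one-color array. The labels name no transgene and no drug for these mice. Nothing in the labels says how many animals went into a lysate or whether the experiments came from separate animals, so the spread between experiments may be partly technical. Equal masses of RNA were labelled, so a ratio gives the share of a transcript in what each antibody recovered and not the amount pulled down. In a lysate of mixed cells, fewer cells with a bound transcript and less of it bound per cell cannot be told apart. The labels differ on the antibody, since a description field gives CPEB3 where the titles, the treatment text and the study give CPEB2. The groups follow the titles.

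Nuclear mRNA precursors are cut downstream of a poly(A) signal by CPSF, CstF and the cleavage factors, and a poly(A) polymerase then adds the tail, which poly(A)-binding proteins cover. In the cytoplasm the tail is shortened by the PAN2-PAN3 and CCR4-NOT deadenylases, and a long tail favors translation. CPEB proteins bind the cytoplasmic polyadenylation element (CPE) in a 3'-UTR and recruit either a cytoplasmic poly(A) polymerase or a deadenylase, and in neurons they are known for control of translation at synapses.

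The probes that carry the CPEB results are shown so that the measured stretch of each transcript can be seen. Each line gives 30 bases of a 60-base probe in the direction of the transcript, as listed in the array's own annotation on mm9. Capitals mark a CPE, searched as TTTTAT or TTTTAAT, or a poly(A) signal, searched as AATAAA, and runs without capitals are bases 16 to 45 of a probe that holds neither.
Cpeb1, probe at chr7:88492337-88492396, minus strand: ttgatagaagtTTTTAATcacagtcacagg
Cpeb2, probe at chr5:43677337-43677396, plus strand: tcaccaaaaccctacatctcaggcttacta
Cpeb3, probe at chr19:37095781-37095840, minus strand: ggacaattggatAATAAAacgacagaatga
Cpeb4, probe at chr11:31831509-31831568, plus strand: tggaactgaagaatgaatgactccagagct
Papolg, probe at chr11:23762935-23762994, minus strand: gcagaaataagcagtggaTTTTATtgaaac
The longest stretch that any pair of the 4 CPEB probes had in common was 7 bases, so the 4 probes read different sequences. A CPE lay in 5 of the 64 probes, or 7.81%, against 4.54% of all 55681 probes on the array. These were probes of Cpeb1, Pcf11, Btg1, Pan2 and Papolg. The AATAAA signal lay in 4 of the 64 probes, or 6.25%, against 10.1% of all probes. Only the strand of the transcript was searched, and the motifs share no match because none contains another. A probe covers a small part of a transcript, so these letters say nothing of the CPEs elsewhere in it.

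Across the 46 genes, 24 were higher with CPEB2 IgG and 5 were lower, and 17 were not called. These calls are from limma, fitted on all 19698 genes with the experiment as a block and with Benjamini-Hochberg adjustment at 0.05. The 24 are 52.2% of the genes listed, where 21.2% of all genes tested were called higher. The 5 are 10.9%, where 20.4% of all genes were called lower. The median log2 ratio of the 46 genes was 1.19, and that of all genes was -0.11. The ratio was above 0 in both experiments for 32 of the 46 genes and below 0 in both for 7. Of all 19698 genes tested, 7193 were above 0 in both and 8509 were below 0 in both. The ratio changed sign between the experiments for the other 7 of the 46 genes.

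**Figure D1:**
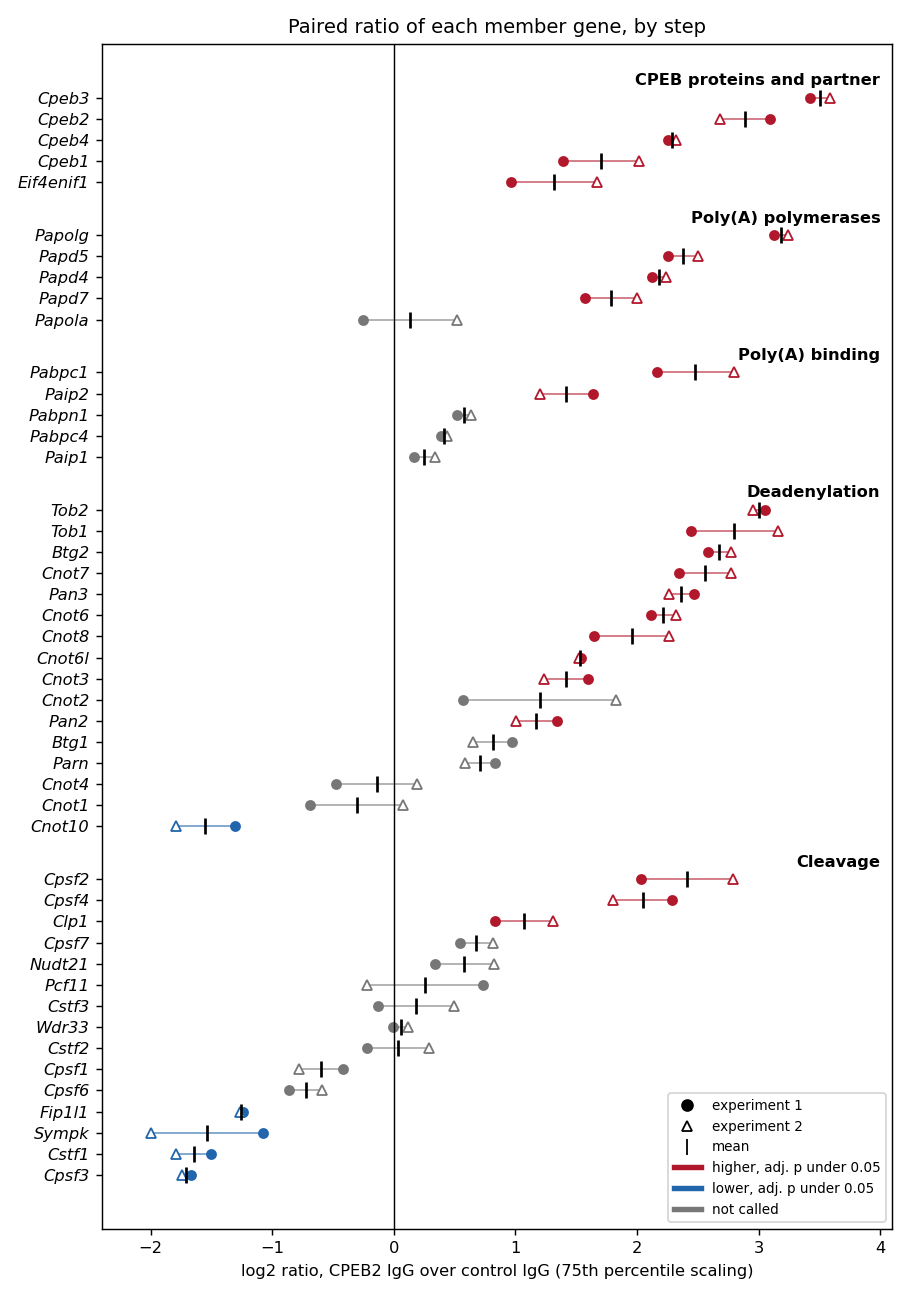
Log2 ratio of CPEB2 IgG over control IgG for each of the 46 genes (rows, by step), with experiment 1 as filled circles, experiment 2 as open triangles and their mean as a black bar. Red and blue mark genes called higher and lower by limma, and gray marks genes not called. All 5 genes of the CPEB step and 4 of the 5 poly(A) polymerases are red, while 4 of the 5 blue genes belong to the cleavage step.

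The share of genes called higher was not alike across the steps. It was 5 of 5 in the CPEB step, 4 of 5 among the poly(A) polymerases, 10 of 16 in deadenylation, 2 of 5 in poly(A) binding and 3 of 15 in cleavage. The median log2 ratio in the same order was 2.29, 2.18, 1.47, 0.58 and 0.06. Genes called lower were found in 2 steps, with 4 in cleavage and 1 in deadenylation. The cleavage shares of 20% higher and 26.7% lower are near the 21.2% and 20.4% of all genes. Without CPEB2 IgG replicate 2, 2 cleavage genes were called lower, and with no filter on dim probes no deadenylation gene was. The count for poly(A) binding ranged from 1 to 4 of 5 genes over the alternatives. Fits with 1 array left out, here and below, also had no experiment block. No test between steps was made.

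**Figure D2:**
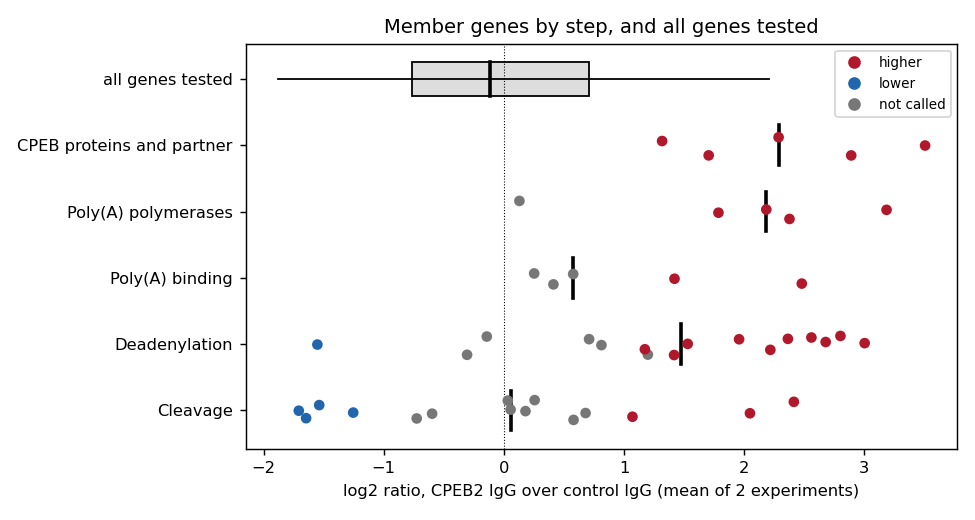
Mean log2 ratio of each gene (points) in the 5 steps, with the median of each step as a black bar. The box for all 19698 genes tested spans -0.76 to 0.71, from the 25th to the 75th percentile, with whiskers at the 5th and 95th percentiles, -1.88 and 2.20. Every gene of the CPEB step lies to the right of that box, while 8 of the 15 cleavage genes lie within it, 3 to its right and 4 to its left.

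All 4 Cpeb transcripts were higher with CPEB2 IgG in both experiments. For Cpeb3, whose protein is closely related to CPEB2, the signal was 10850 and 9425 with CPEB2 IgG against 1073 and 797 with control IgG. For Cpeb2 it was 2410 and 1877 with CPEB2 IgG against 299 and 297 with control IgG. Neither gene's CPEB2 IgG signals came near those of control IgG. For Cpeb4, the other close relative of CPEB2, the signal was 1613 and 1596 with CPEB2 IgG against 359 and 325 with control IgG. For Cpeb1, the founding member of the family, it was 4188 and 6111 with CPEB2 IgG against 1689 and 1537 with control IgG. In no Cpeb gene did the arrays of the antibodies overlap. The share of all genes whose arrays were apart in this way was not counted, here or in the steps below.

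The paired log2 ratios of Cpeb3 were 3.42 and 3.59 in experiments 1 and 2, with a mean of 3.50 ± 0.12 (SD, n = 2) and an adjusted p of 0.0054 from limma. The ratios were 3.10 and 2.68 for Cpeb2, with a mean of 2.89 ± 0.29 and the same adjusted p. They were 2.25 and 2.32 for Cpeb4 (mean 2.29 ± 0.05) and 1.39 and 2.01 for Cpeb1 (mean 1.70 ± 0.44), with adjusted p of 0.0054 and 0.0104. In the order Cpeb3, Cpeb2, Cpeb4, Cpeb1, no gene's ratios overlapped those of the next, although the differences between genes were not tested. Cpeb3 stood at rank 80 among the 19698 genes and Cpeb1 at rank 1859. Without a filter on dim probes, which added genes to the adjustment, Cpeb1 had an adjusted p of 0.0528 and lost its call.

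Eif4enif1 encodes 4E-T, a partner of the cap-binding protein eIF4E that was found with CPEB1 in translation repression. Its signal was 3012 and 4767 with CPEB2 IgG against 1635 and 1525 with control IgG. The log2 ratio of 0.96 and 1.67 (mean 1.32 ± 0.50) gave an adjusted p of 0.0220. Its range overlapped that of Cpeb1, and its call was lost without either of the control IgG arrays. Its adjusted p was 0.0774 when dim probes were kept, so 3 of the 5 genes in this step were called there.

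Among the poly(A) polymerases, the transcripts of 4 genes were higher and the canonical Papola was not called. Papolg encodes a second canonical nuclear polymerase and had the highest ratio of the genes outside the CPEB step. Its signal was 3495 and 4212 with CPEB2 IgG against 425 and 452 with control IgG. The log2 ratio was 3.12 and 3.24 (mean 3.18 ± 0.08, adjusted p 0.0054). The CPE shown above lies in this probe. A second Papolg probe was not well above background on any array and adds nothing.

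The 3 noncanonical polymerases were all higher. Papd4 encodes GLD2, the enzyme that lengthens tails in the cytoplasm together with CPEB proteins. Its log2 ratio was 2.12 and 2.24 (mean 2.18 ± 0.08, adjusted p 0.0056). Papd5, a polymerase that also tags RNAs for trimming, had signals of 8481 and 9740 with CPEB2 IgG against 1884 and 1752 with control IgG, and a mean log2 ratio of 2.38 ± 0.17. Its paralog Papd7 had signals of 2292 and 3368 against 819 and 855, and a mean log2 ratio of 1.78 ± 0.31. These groups were apart for each of the 3 genes.

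Papola encodes the main nuclear poly(A) polymerase. Its signal was 2674 and 2266 with CPEB2 IgG against 3385 and 1611 with control IgG, so the groups overlapped. The log2 ratio was -0.26 in experiment 1 and 0.52 in experiment 2, and the mean of 0.13 ± 0.55 had an adjusted p of 0.752. The Papola probe had 20 bases in common with a probe annotated to another gene, so its signal may not be of Papola alone.

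**Figure D3:**
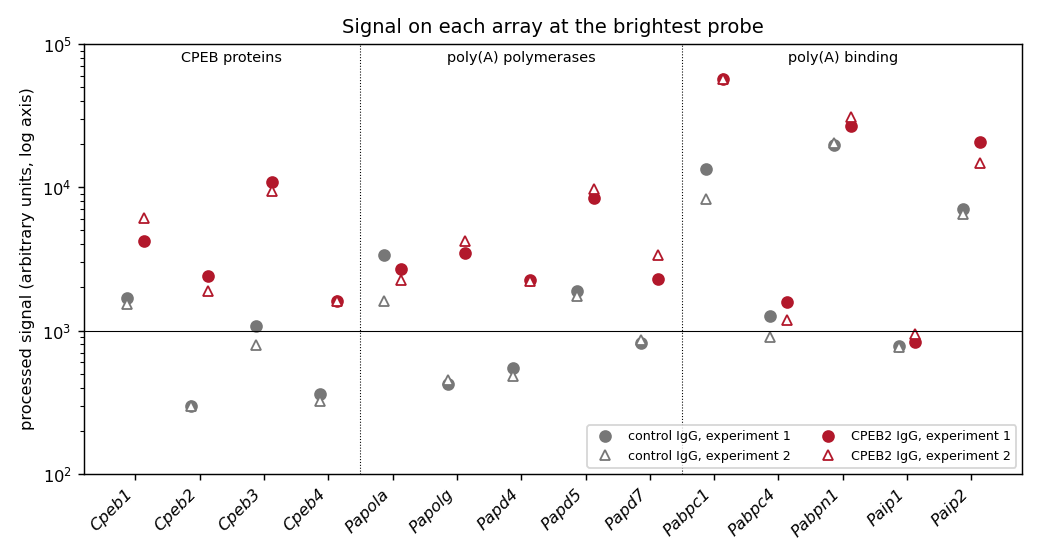
Processed signal (log axis, arbitrary units) on each of the 4 arrays for the CPEB, poly(A) polymerase and poly(A)-binding genes, with control IgG in gray and CPEB2 IgG in red, experiment 1 as filled circles and experiment 2 as open triangles. The horizontal line is the signal of 1000 used as a threshold in the study's methods. For Cpeb3 the CPEB2 IgG points are at 10850 and 9425 and the control IgG points at 1073 and 797, while the points of Papola are mixed. Heights of different genes are different probes and are not comparable.

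Of the 5 genes for poly(A)-binding proteins and their partners, 2 were higher and 3 were not called, and all 5 had ratios above 0 in both experiments. Pabpc1 encodes the main cytoplasmic poly(A)-binding protein. Its signal was 56990 and 56750 with CPEB2 IgG against 13470 and 8322 with control IgG. The log2 ratio of 2.16 and 2.79 (mean 2.48 ± 0.45) had an adjusted p of 0.0058. This probe had a run of 36 bases in common with a probe on chromosome 3 that has no gene name and whose log2 ratio was 2.52. Whether the signals come from separate transcripts was not tested.

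Paip2 encodes an inhibitor that takes PABPC1 off the tail. At the probe used for the gene, its signal was 20830 and 14700 with CPEB2 IgG against 7094 and 6498 with control IgG, and the mean log2 ratio was 1.42 ± 0.31 (adjusted p 0.0134). A second probe, 642 bases upstream in the direction of transcription, read 2471 and 2073 with CPEB2 IgG against 3465 and 3221 with control IgG. That probe was lower with CPEB2 IgG in both experiments, at a mean log2 ratio of -0.51. The mean over both probes was 0.46 with an adjusted p of 0.187, so the call for Paip2 rests on the downstream probe.

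The other 3 genes of this step were not called. Pabpc4, a cytoplasmic relative of Pabpc1, read 1572 and 1192 against 1274 and 895, with overlapping groups and a mean log2 ratio of 0.41 ± 0.04. Paip1, a coactivator of translation that binds PABPC1, read 833 and 949 against 786 and 764, and its groups were just apart at a mean log2 ratio of 0.25 ± 0.12. Pabpn1, the nuclear poly(A)-binding protein, had a ratio of 0.58. Adjusted p was 0.213, 0.433 and 0.109 for these genes. Under centring within bins of probe GC content, Pabpc4 and Pabpn1 passed the threshold. A second Paip1 probe further downstream had a ratio of 1.00.

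In the deadenylation step, 10 of 16 genes were higher, 1 was lower and 5 were not called. The BTG/TOB genes encode adaptors that link CCR4-NOT to other proteins, and Tob proteins are known to join CPEB3 to a deadenylase. Tob2 read 6196 and 5363 with CPEB2 IgG against 791 and 705 with control IgG, at a mean log2 ratio of 3.00 ± 0.07. Tob1 read 9518 and 15230 against 1853 and 1738, at a ratio of 2.80 ± 0.50. Both had an adjusted p of 0.0054, and neither gene's groups overlapped. Btg2 had a ratio of 2.68 and was also called. Btg1 had a ratio of 0.81 with an adjusted p of 0.0523 and was not, although it passed the threshold in 9 of 17 alternative analyses. A second Btg1 probe, which was not well above background on either control IgG array, was at least 1.99-fold higher with CPEB2 IgG, counting the control signal at no less than the dimmest signal above background.

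The CCR4-NOT complex was split by subunit. The 4 catalytic genes were all higher. Cnot7 and Cnot8, which encode the CAF1 nucleases, had log2 ratios of 2.56 and 1.96. Cnot6 and Cnot6l, which encode the CCR4 nucleases, had ratios of 2.22 and 1.53. All 3 probes of Cnot6 gave like values, from 2.22 to 2.84, and both probes of Cnot6l were above 1.5.

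The noncatalytic subunits varied more. Cnot3 was higher at a ratio of 1.42. Cnot2, which pairs with CNOT3 on the scaffold, had a ratio of 0.57 in experiment 1 and 1.83 in experiment 2 and was not called (adjusted p 0.0579), although it passed in 8 of 17 alternatives. A second detected Cnot2 probe, 349 bases upstream, had ratios of 0.39 and 0.46 in experiments 1 and 2 (mean 0.42). Cnot4, a ubiquitin ligase, was at -0.14. Cnot1, the scaffold of the complex, read 762 and 1317 with CPEB2 IgG against 1299 and 1272 with control IgG. The groups of Cnot1 overlapped, and its mean ratio of -0.31 ± 0.54 had an adjusted p of 0.442. Cnot10 read 259 and 230 against 679 and 811, with a ratio of -1.55 ± 0.34 and an adjusted p of 0.0112. It was the only gene of this step called lower.

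Both genes of the PAN2-PAN3 deadenylase were higher. Pan3, the subunit that binds the poly(A)-binding protein, had a log2 ratio of 2.36. Pan2, the nuclease, had a ratio of 1.17 and lost its call without either of the control IgG arrays. Parn, a nuclease found with CPEB1 and GLD2 in oocytes, had a ratio of 0.71 with an adjusted p of 0.0704. It passed the threshold in 6 of 16 alternative analyses.

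In the cleavage step 3 of 15 genes were higher, 4 were lower and 8 were not called. The highest were subunits of CPSF, the complex that recognizes the poly(A) signal. Cpsf2 read 2708 and 4132 with CPEB2 IgG against 699 and 608 with control IgG, at a mean log2 ratio of 2.41 ± 0.53 (adjusted p 0.0063). Cpsf4 read 2858 and 2058 against 619 and 599, at a ratio of 2.05 ± 0.34 (adjusted p 0.0066). The groups of both genes were well apart, and a second Cpsf4 probe had a ratio of 1.24. Clp1, a kinase subunit of cleavage factor II, was called at a ratio of 1.07 but lost the call in 5 of 16 alternative analyses.

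Cpsf3 encodes the nuclease that makes the cut. It read 528 and 552 with CPEB2 IgG against 1783 and 1875 with control IgG, at a mean log2 ratio of -1.71 ± 0.05 (adjusted p 0.0075). It was the only one of the 5 genes called lower that kept the call in all 17 alternatives. Within CPSF, then, 2 genes were higher and 2 were lower, the second being Fip1l1, a factor that tethers the polymerase, at a ratio of -1.25. Sympk, the scaffold called symplekin, which also joins the cytoplasmic CPEB complex, was lower at -1.54. Sympk lost its call without either CPEB2 IgG array and without control IgG replicate 2, and Fip1l1 lost it without CPEB2 IgG replicate 2 and without control IgG replicate 1.

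The other 8 cleavage genes were not called. Their log2 ratios were 0.68 for Cpsf7, 0.58 for Nudt21 and -0.73 for Cpsf6, which form cleavage factor I. They were 0.26 for Pcf11 of cleavage factor II, 0.18 for Cstf3 and 0.03 for Cstf2 of CstF, and 0.06 for Wdr33 and -0.60 for Cpsf1 of CPSF. Scaling the arrays another way moved the median of all genes by up to 0.23 on the log2 scale, and under at least 1 such scaling Wdr33, Cstf2 and, in the deadenylation step, Cnot4 changed sign.

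Cstf1, a subunit of CstF, showed the widest disagreement between probes of the same gene. The bases below are from its 2 probes, with the AATAAA in capitals.
Cstf1 upstream, probe at chr2:172206524-172206583, plus strand: cattgtcctggtAATAAAgctcagatctac
Cstf1 downstream, probe at chr2:172207753-172207812, plus strand: ccgttgcacacgtccagaatatcacacact
The upstream probe, which holds the AATAAA and was used for the gene, read 927 and 853 with CPEB2 IgG against 2783 and 2993 with control IgG. The downstream probe, 1229 bases further along, read 384 and 270 with CPEB2 IgG against 113 and 90.4 with control IgG. The probes thus went in opposite directions in both experiments, with no overlap of the groups at either. The mean log2 ratio was -1.65 ± 0.20 upstream (adjusted p 0.0086) and 1.72 ± 0.17 downstream. Over both probes the mean was 0.04 with an adjusted p of 0.907. The downstream probe is listed under another transcript accession than the upstream probe, and whether the probes read separate transcripts was not tested.

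The same comparison could be made for 14 of the 46 genes, those with at least 2 probes detected. The probes of a gene spanned more than 1 on the log2 scale in 3 of them (21.4%), Cstf1, Paip2 and Wdr33, where 41.2% of 5416 genes with several detected probes did. Wdr33, the CPSF subunit that contacts the poly(A) signal, had probes at 0.06 and -1.10. Its upstream probe read 388 and 499 with CPEB2 IgG against 413 and 467 with control IgG, which overlapped. Its downstream probe read 195 and 230 against 430 and 514, which did not. The most downstream probe had the highest ratio in 10 of the 14 genes (71.4%), and the same held in 67.6% of the 5416 genes. Btg1 is among the 10 through a probe that has only a bound, at a log2 ratio of at least 0.99 against 0.81 upstream. Over genes with exactly 2 detected probes, the shares were 83.3% of 12 genes here and 70.4% of 4303 genes, and spans over 1 were found in 25% and 34.9%.

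**Figure D4:**
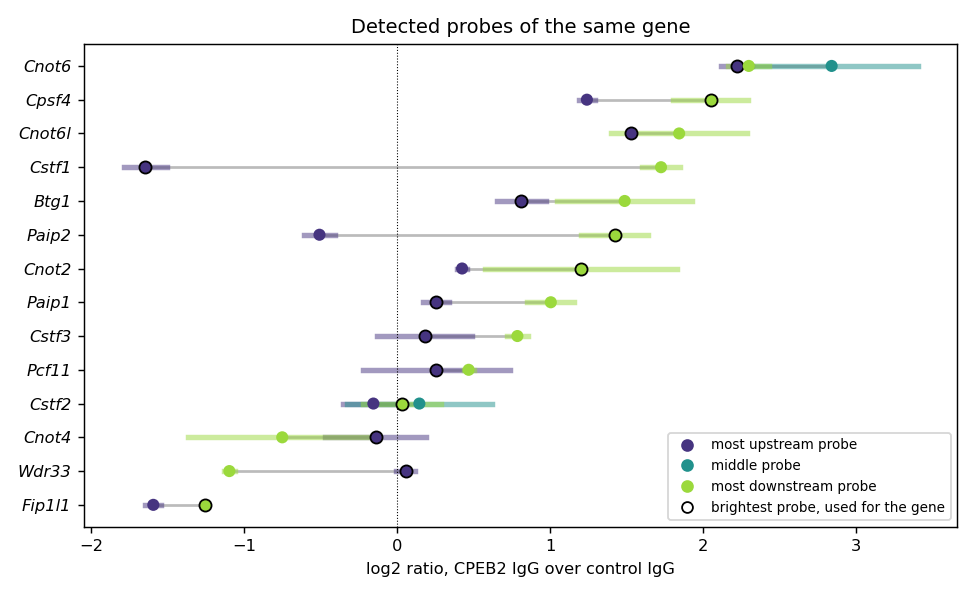
Mean log2 ratio (points) of each detected probe of the 14 genes with several, colored from the most upstream to the most downstream in the direction of transcription, with thick bars from experiment 1 to experiment 2 and a black outline on the brightest probe. The probes of Cstf1 are at -1.65 and 1.72, and those of Paip2 at -0.51 and 1.42, whereas both probes of Fip1l1 are below 0. The downstream probe of Btg1 was not above background with control IgG, so its point is not a measured ratio.

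The thresholds named in the study's methods were applied as well, leaving out its requirement for a CPE in the 3'-UTR, which was not analysed here. A probe with a mean fold above 1.5 and, on either array with CPEB2 IgG, a raw signal over 1000 was found for 26 of the 46 genes, or 56.5%, where 13.9% of all 24164 genes had one. Both rules use these same ratios. The gap was narrower among genes past the signal threshold alone, at 81.2% here against 47.7% of 7033 genes, a set that was itself chosen on the CPEB2 IgG arrays. Of the 24 genes called by limma, Clp1, Cnot3 and Pan2 stayed below the signal threshold. Cpsf7, Cstf3, Cnot2, Btg1 and Paip1 met both thresholds without a limma call, Cstf3 and Paip1 through a second probe.

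Other genes of the pathway were taken from a second list of poly(A), cap-binding and decapping factors. Of 52 such genes on the array, 49 were tested, 18 were higher (36.7%) and 4 were lower (8.16%), with a median log2 ratio of 0.27, beside 21.2%, 20.4% and -0.11 for all genes tested. The highest were Zfp36, which encodes the mRNA decay factor tristetraprolin, at 3.73, and Dcp1a, a decapping activator, at 2.97. Zfp36 was dim, with signals of 71.8 and 384 against 8.22 and 20.5, and was above background on only 1 control IgG array. The lowest were Ssu72, a phosphatase of the cleavage complex, at -1.61, and Papolb, the testis poly(A) polymerase, at -1.46. Papolb was above background on only 1 CPEB2 IgG array.

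Probe base composition moved with the calls. The median GC content of the probes was 36.7% for the 24 genes called higher, 40% for those not called and 50% for the 5 called lower. Over all genes tested the medians in the same order were 36.7%, 41.7% and 45%. When the arrays were centred within bins of probe GC content, which also sets the median of each bin to 0, all 24 and all 5 genes were called again, among 29 higher and 6 lower, with 24.7% of all genes higher and 17.7% lower. Centring on the array median raised the calls over all genes to 5212 higher (26.5%) and lowered them to 3301 lower (16.8%), from 4174 and 4020, and gave 28 and 5 among the 46 genes.

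On the 4 arrays, 68.4% to 74.1% of spots were well above background and none was saturated. All 20 marker genes of neurons, hippocampus and cortex, glia and blood were detected on every array, while of 2 liver markers Alb was detected on none and Apoa2 on all 4, at 2922 to 4369. Among them Tbr1, Gfap, Aldh1l1, C1qa, Aif1 and Hba-a1 were lower with CPEB2 IgG. The 5 neuronal markers were not called, with summed signals of 58063 and 54845 with CPEB2 IgG against 61678 and 71567 with control IgG. The 3 astrocyte markers summed to 2870 and 2399 with CPEB2 IgG against 15614 and 12245 with control IgG, and the 3 microglial markers to 2814 and 2174 against 5546 and 4166. Most of the astrocyte sum with control IgG was Aldh1l1, at 12650 and 9607 against 1007 and 600 with CPEB2 IgG, while Aqp4 of the same list was not called at a log2 ratio of 0.59. The part of these differences in the ratios above was not tested. All arrays lay on the same slide, each antibody at its own positions, so position and antibody cannot be told apart. For a single gene, an exact two-sided permutation test of 2 arrays against 2, without the pairing, cannot give a p below 0.333. A test that kept the pairing would have fewer arrangements and a higher floor. The limma fit leaves 1 residual degree of freedom, so its p-values rest mostly on the variance shared across genes.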

How the data were processed

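RIP-microarray signals were read for 4 one-color Agilent arrays, 2 for CPEB2 IgG and 2 for control IgG. The authors deposited the scanner output of Agilent Feature Extraction 10.5.1.1, whose processed signal is a spot intensity after the software's background correction, with no scaling between arrays. Control spots and spots marked as outliers were left out, and 66 probes without a value on every array were dropped. The log2 signal was centred on the 75th percentile of each array. Each gene took its brightest probe among probes well above background on at least 2 arrays. The paired difference was fitted with limma 3.58.1 in R 4.3.3, with the experiment as a block and Benjamini-Hochberg adjustment over 19698 genes at 0.05. The study's methods give 2 independent experiments with the lysate divided between the antibodies, which is where the pairing comes from. Arrays of the same number deviated together, with a correlation of 0.203. The fit was also run on simulated data, drawn with the fit's own variances and without an experiment effect. That run was a check of the code and not of the calls. Sequences were handled with Python 3.11.15, pandas 2.3.3 and numpy 2.4.6.

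The 46 genes, the gene lists and the tests were chosen with earlier results of these data known. Named genes were the Cpeb genes and, in each other step, the 2 highest and the 2 lowest ratios, given with all 4 signals. Genes with probes that spanned over 1 were given by probe, and every other member by its ratio. Symbols and mm9 coordinates were used as the array annotation gives them. No genome or protein sequence was used here, and CPEs in whole 3'-UTRs were not analysed here. The value of 1 marker gene is not reported here.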

Additional observations from a re-analysis of the deposited data

How the results depend on the processing

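Of the 24 genes called higher, 18 kept the call in all 17 alternative fits, as did 1 of the 5 called lower, Cpsf3. The median log2 ratio of 1.19 moved to 1.41 with median centring, 0.91 with normexp background correction and 1.62 with only the 36 genes whose raw signal passed 1000, and ranged from 0.97 to 1.24 with 1 array or 1 experiment left out. The count of genes called lower over all 46 was 3 with no filter on dim probes, where 18 were higher, 8 calls were lost, more genes were tested and 9.37% of all genes were higher and 7.6% lower. With 1 array left out, 21 to 26 genes were higher and 3 to 4 lower, beside 14.7% to 21.5% and 12.1% to 21.6% of all genes. Without the replicate block, 26 were higher and 5 lower, 23 of the 24 kept the call, and Clp1 lost it. The study's thresholds gave 23 to 28 genes under other scalings and cut-offs. They take any probe, so the rules for filtering and combining probes gave no value. Cstf1, called lower, was at 0.039 over the mean of its probes. The other genes that changed sign were not called. Wdr33 was at -0.52 over the mean of its probes, -0.052 with the percentile over probes above background on all arrays and -0.17 with GC bins. Cstf2 was at -0.087 with quantile normalization, -0.021 with no scaling, -0.075 with the percentile over probes above background and -0.19 with GC bins. Cnot4 was at 0.085 with median centring. With 1 array or experiment left out, the ratio ranged from -0.13 to 0.24 for Wdr33, -0.22 to 0.29 for Cstf2, -0.13 to 0.49 for Cstf3, -0.22 to 0.74 for Pcf11, -0.70 to 0.089 for Cnot1, -0.47 to 0.19 for Cnot4 and -0.38 to 0.63 for Papola. The causes were not tested. Of the 17 genes not called, 9 passed the threshold in at least 1 alternative. With 2 arrays for each antibody, their number limits the precision.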
